A study of Homo sapiens with 24 samples.

Results

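The genes of the matrix and of its receptors were described in BT549, an established human cell line of triple negative breast cancer: 34 collagen chains, 10 laminin chains, 19 integrin subunits and fibronectin. They were taken by symbol alone (every COL, LAM, ITGA and ITGB gene of the usual numbered form, and FN1), which gave 64 of the 18154 genes named in at least 1 of 3 expression tables. Of them, 62 were listed for the MYC knockdown, all 64 for the inhibitor experiment and 36 for MB-3, and 36 stood in all 3. No measured value entered this rule, though the set was chosen with earlier results of these data known.

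The study sequenced RNA of 24 libraries, 8 groups of 3, in 3 experiments that each had a control of its own. All cells were wild type BT549 in RPMI with serum. In the knockdown, siMYC cells received a pool of small interfering RNAs against MYC for 72 h and siCtl cells a control siRNA. In the inhibitor experiment the groups were VEH (vehicle), DEX, KJ-PYR-9 (a compound that inhibits MYC, 40 µM for 3 h, dissolved in DMSO) and KJ-PYR-9+DEX. The labels give neither the dose nor the time of DEX and do not spell the abbreviation out. In the last experiment, cells received MB-3 (an inhibitor of the acetyltransferase GCN5, 100 µM for 3 h; group MB3) or vehicle (group VEH2). The model is 1 cell line grown without stroma. Replicates are labelled as biological, with no word on whether they were separate cultures, so p-values measure the spread between these libraries.

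Collagens, laminins and fibronectin are secreted proteins that build the scaffold around cells. Fibrillar collagens form the cables of connective tissue, and laminins with type IV collagen form the sheet of the basement membrane. Integrins are receptors made of an alpha and a beta chain that grip these proteins and couple them to the cytoskeleton, and matrix production and integrin signalling are known traits of mesenchymal breast cancer cells.

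Values are normalized read counts. A fold change is the difference of mean log2(value + 1) between 2 groups, and a gene was called where limma's moderated test gave an adjusted p (Benjamini-Hochberg, over all genes tested) under 0.05. The test took genes whose mean reached 10 in the libraries of a fit: 61 of the 62 matrix and integrin genes listed in the knockdown, 52 of the 64 in the inhibitor experiment and all 36 in the MB-3 experiment. Libraries held 18.77 to 24.15 M reads in the MYC siRNA experiment. Inhibitor libraries held 5.582 to 30.76 M, and those of MB-3 and its vehicle 8.306 to 19.96 M. Features without a gene symbol held 26.04% of the reads of DEX replicate 1, 8.72% of KJ-PYR-9+DEX replicate 3, and 1.62% to 5.44% of the others of the inhibitor experiment. MYC fell little in the knockdown and did not pass the test: 2313, 2269 and 2138 in siCtl against 1655, 1789 and 1710 in siMYC (log2 fold change −0.38, SE 0.11, limma adjusted p = 0.0587). Under KJ-PYR-9, MYC RNA was higher, at 1551, 1378 and 2490 in VEH against 10272, 8283 and 11004 (2.49, SE 0.21, limma adjusted p = 6.38e-05). It was higher still in DEX, at 19573, 16916 and 18783, and had 4305, 3666 and 4510 in KJ-PYR-9+DEX. KAT2A, which encodes GCN5, had 415, 509 and 524 in VEH2 and 348, 454 and 465 in MB3 (−0.20, SE 0.14, limma adjusted p = 0.526). Mesenchymal markers summed to 14777 to 40122 per library (5 of 5 listed). Epithelial markers summed to 80.2 to 961 (5 or 6 of 7 listed), with EPCAM absent from the lists. Of the leukocyte markers, PTPRC had a mean of at most 27.6, CD14 of 42.4 and CD68 of 39.1 in the groups that listed them. CORO1A was listed in every group, with means of 76.5 to 240, and the remaining leukocyte markers were in no list. In bulk RNA, fewer cells and less RNA per cell cannot be told apart.

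In the controls the levels of these genes were spread over a wide range. Per kilobase of exon, ITGB1, the beta chain shared by most matrix receptors, had the highest level of the matrix and integrin genes listed in each control group: 4448 ± 299 reads per kb in siCtl, 1913 ± 57.5 in VEH and 4079 ± 141 in VEH2 (SD, n = 3 each), which placed it above 99.2% to 99.6% of all genes. The 3 tables were normalized apart, so levels are compared only within a table. Next in VEH came the fibrillar chains COL3A1 (1650 ± 411 reads per kb), COL1A1 (1328 ± 342) and COL1A2 (1264 ± 183), and then COL15A1 (1157 ± 527), a basement membrane zone collagen, and LAMC1 (977 ± 112), the gamma chain of most laminins. Neighbours in this order of 5 overlap in their VEH libraries. In siCtl ITGB1 was followed by COL1A2 at 2379 ± 508 and COL3A1 at 2354 ± 633 reads per kb, with COL1A1 lower at 1294 ± 485, and in VEH2 COL15A1 (2277 ± 168) and COL3A1 (2265 ± 340) were level.

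**Figure D1:**
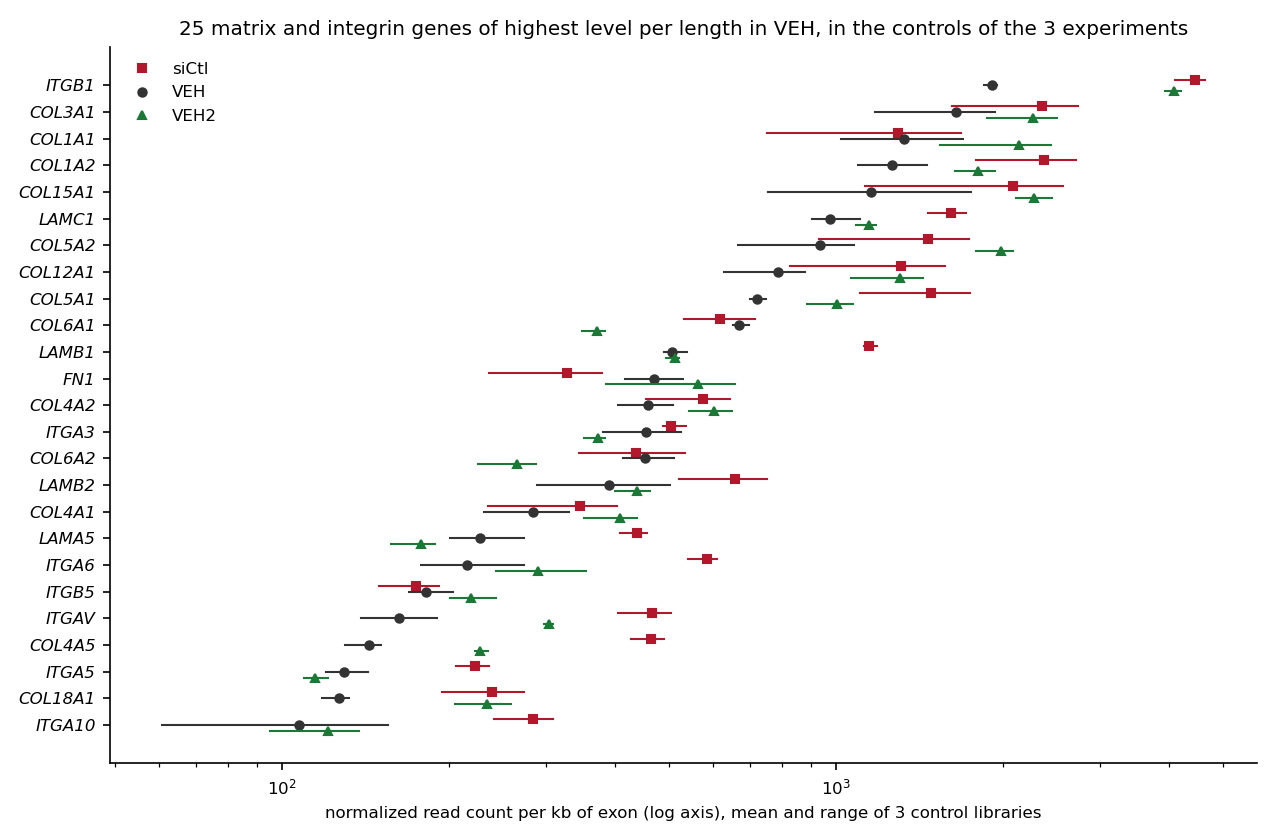
Normalized read count per kilobase of exon, on a log axis, for the 25 matrix and integrin genes of highest level in VEH, as the mean (symbol) and range (line) of the 3 libraries of siCtl, VEH and VEH2. ITGB1 is highest in each control group, and in VEH fibrillar chains, COL15A1 and LAMC1 follow.

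Other classes were lower. COL12A1, which decorates fibrils, had 787 ± 137 reads per kb in VEH, and COL6A1, of the beaded filaments of type VI collagen, 669 ± 25.6. FN1 had 470 ± 56.9, ITGA3, a laminin receptor chain, 454 ± 73.5, ITGB5, which pairs with the alpha V chain, 182 ± 18.9, and ITGA10, a collagen receptor chain, 107 ± 47.4. Of the transmembrane collagens the highest, COL13A1, reached only 20.9 ± 3.75 reads per kb. Type VI collagen is assembled from 3 different chains, and they were very unequal here: COL6A2 had 452 ± 51.3 reads per kb in VEH, near COL6A1, while COL6A3 had 3.91, and per kb the COL6A3 to COL6A1 ratio was 0.00578 ± 0.00271 in VEH and 0.0202 ± 0.00605 at its highest group mean, in MB3. The 62 genes listed for siCtl held 1.14% ± 0.212 of its named reads and the 64 listed for VEH 1.24% ± 0.148, and the 36 listed for VEH2, whose table holds 10048 genes, held 1.61% ± 0.155 (n = 3 each). Replicate 3 of siCtl was low in fibrillar collagens and in COL15A1: COL1A1 had 14251, 16509 and 7371, COL3A1 18645, 18392 and 11055, and COL15A1 17108, 17053 and 7518.

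Fold changes of these genes moved with their base composition, and the cause was not tested. Fold change against transcript GC content gave a Spearman rho of −0.73 for DEX (52 genes) and −0.64 for MB-3 (36 genes), beside −0.68 and −0.63 over all genes with a GC value, and positive values for KJ-PYR-9, given with its comparisons. These are across genes, which share their libraries. Integrin beta chains are shown because they differ in base composition. The stretches printed here are 20 codons long and start at the motif that binds the metal ion in the I-like domain, where the ligand docks. They encode matching parts of related proteins, read from the longest coding transcript of each gene in GENCODE v29 (GRCh38), 5′ to 3′, with G or C at the third base of a codon in capitals.
ITGB4: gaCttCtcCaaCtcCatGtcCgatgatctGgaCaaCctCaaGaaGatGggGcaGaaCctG
ITGB5: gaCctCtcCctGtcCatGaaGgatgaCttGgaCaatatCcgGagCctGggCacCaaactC
ITGB3: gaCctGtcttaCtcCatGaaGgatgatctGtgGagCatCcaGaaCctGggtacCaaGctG
ITGB1: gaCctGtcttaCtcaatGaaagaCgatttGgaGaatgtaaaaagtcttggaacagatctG
ITGB8: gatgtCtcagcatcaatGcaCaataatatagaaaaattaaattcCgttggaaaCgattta
The third base is G or C in 18 of 20 codons in ITGB4, 17 in ITGB5, 16 in ITGB3, 8 in ITGB1 and 5 in ITGB8. Over the whole coding sequence the share is 82.8% in ITGB4, 69.8% in ITGB5, 66.2% in ITGB3, 38.5% in ITGB1 and 39.6% in ITGB8. These are the 5 beta chains tested in the inhibitor experiment. ITGB2, with 15 of 20 codons, and ITGB7, with 18, did not reach the mean normalized count of 10 needed there. With KJ-PYR-9 in DEX treated cells ITGB5 and ITGB4 were called higher and ITGB1 and ITGB8 lower, while ITGB3 was not called, as given with that comparison. ITGB4 reached the mean of 10 only through the libraries given KJ-PYR-9.

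MYC with its partner MAX binds the E-box CACGTG, a motif that reads the same on both strands. In the 250 bases before the start site, RefSeq promoters (GRCh38.p14) of 48 of the 64 genes could be matched, and 1 of the 48 (2.08%) held CACGTG, against 2228 of 35116 promoters of all genes (6.34%). That gene was ITGA6, the laminin receptor chain that pairs with beta 1 or beta 4. Its window at chr2:172427208-172427267 on the plus strand is shown with the motif, which begins 101 bases before the start site, in capitals.
ITGA6: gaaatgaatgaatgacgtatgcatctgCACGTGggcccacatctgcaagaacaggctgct
ITGA6 had 3979, 3946 and 3535 in siCtl and 3813, 3579 and 3204 in siMYC, groups that overlap (−0.11, SE 0.13, limma adjusted p = 0.540). A match of letters is not a bound site.

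Knockdown of MYC went with more RNA of fibronectin, type VI collagen and several integrin chains. Of the 61 genes tested, 16 were higher, where 11.4% of all 14788 genes tested were, and 2 were lower, against 4.78%. With TMM scaling in place of the deposited one, the split of all genes moved from 1679 higher and 707 lower to 1374 and 944, and that of the matrix and integrin genes to 13 and 2. The median log2 fold change of the 61 was 0.45, beside 0.05 over all genes. By role, 3 of 5 beaded filament collagens were higher and 1 lower, 3 of 5 chains of the integrins that bind the RGD motif of fibronectin and vitronectin were higher, as were 2 of 8 laminin chains, and none of the 8 fibrillar collagens was called. The epithelial marker sum was also higher in siMYC, at 689 to 961 against 326 to 356 in siCtl (5 of 7 markers listed), with CDH1, E-cadherin, at means of 377 and 90.0. The endothelial sum was 48.9 to 93.6 against 17.8 to 30.5 (1 of 5 listed). The part of these shifts in the results was not tested.

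FN1, at chr2:215360440-215436172, had 6545, 6354 and 4089 in siCtl and 9750, 12050 and 16929 in siMYC (1.18, SE 0.27, limma adjusted p = 0.0330). The groups do not overlap, and siMYC replicate 3 was the highest. COL6A1 and COL6A2, neighbours on chromosome 21 that encode chains of the same filament, rose alike. COL6A1 went from 3814, 3262 and 2843 to 5536, 7736 and 6505 (0.99, SE 0.18, limma adjusted p = 0.0193), and COL6A2 from 2878, 2312 and 1851 to 3947, 5041 and 4717 (0.98, SE 0.19, limma adjusted p = 0.0246). COL6A3, the remaining chain and a weakly expressed one, had 69.2, 69.8 and 37.6 in siCtl and 196, 152 and 499 in siMYC (2.10, SE 0.47, limma adjusted p = 0.0324). In all 3 chains every siMYC library lay above every siCtl library. COL6A6, a related chain at low level, was lower, with 25.7, 36.0 and 42.7 against 17.8, 11.4 and 11.1 (−1.31). COL21A1, a fibril-associated collagen, also fell, from 281, 361 and 229 to 154, 120 and 133 (−1.08, SE 0.20, limma adjusted p = 0.0203).

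Of the integrin chains, 7 of 18 were called higher. ITGB3, whose product pairs with alpha V, had 30.6, 30.5 and 25.9 in siCtl and 67.4, 113 and 118 in siMYC (1.70, SE 0.23, limma adjusted p = 0.0107). ITGA5, the classical fibronectin receptor chain, had 1793, 1564 and 1712 against 2942, 4889 and 5004 (1.30, SE 0.22, limma adjusted p = 0.0175). ITGA3 had 5256, 4782 and 4774 against 9245, 13666 and 13686 (1.28, SE 0.18, limma adjusted p = 0.0121). In these 3 genes siMYC replicate 1 had the smallest rise and still lay above all siCtl libraries. ITGA11, a collagen receptor chain of mesenchymal cells, had 116, 110 and 57.7 against 278, 226 and 288 (1.53, SE 0.28, limma adjusted p = 0.0204). ITGA7, a laminin receptor chain best known from muscle, had 56.3, 55.6 and 31.8 against 98.1, 107 and 100 (1.12, SE 0.23, limma adjusted p = 0.0274). ITGB2, the beta chain of leukocyte integrins, rose by 2.15 from 10.87, 11.99 and 20.07, a level near the filter. The leukocyte marker sum was 262 to 304 in siCtl and 257 to 278 in siMYC (4 of 10 listed). That sum was mostly CORO1A, which had a lower mean in siMYC (186 against 231). CD68 had a higher mean in siMYC (39.1 against 12.2), as did CD14, and PTPRC had a lower one. The part of these shifts in the ITGB2 rise was not tested. ITGB5 (1.07), COL9A3 (1.03), COL16A1 (0.76), LAMB2 (0.71) and COL18A1 (0.66) were also called higher. ITGB1 itself had 27876, 27668 and 24662 against 28057, 22332 and 24533, groups that overlap (−0.10, limma adjusted p = 0.614), and ITGAV fell short of the threshold at −0.87 (limma adjusted p = 0.0663).

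The count rested on single libraries, and so did that of all genes. Without siCtl replicate 1, 2 or 3 it was 8, 3 or 5, and without siMYC replicate 1, 2 or 3 it was 29, 10 or 3. All genes had 1679 higher and 707 lower with every library. Without each siCtl library in turn they had 496 and 74, 453 and 77, and 383 and 49. Without each siMYC library in turn they had 2144 and 1839, 1209 and 566, and 444 and 76. ITGB3 was called in all 6 of these fits, and it shares 51.6% of its exon bases with another gene on the same strand, AC068234.1, so its reads may be split. ITGA3 lost its call only without siCtl replicate 3 (limma adjusted p = 0.0503), ITGA11 only without siMYC replicate 3 (0.0719) and ITGB2 only without siCtl replicate 2 (0.0517). FN1 kept it only without siMYC replicate 1, with limma adjusted p up to 0.0944 and a fold change between 0.96 and 1.37. COL6A1 and ITGB5 lost it without siCtl replicate 2 or 3 or siMYC replicate 3 (up to 0.0700 and 0.0609), and COL21A1 without siCtl replicate 1 or 2 or siMYC replicate 3 (up to 0.0689). COL6A2 and COL6A6 lost it without siCtl replicate 2 or 3 or siMYC replicate 2 or 3 (up to 0.0814 and 0.0766), and ITGA7 without siCtl replicate 1 or 2 or siMYC replicate 2 or 3 (up to 0.0826). COL6A3, ITGA5 and COL9A3 lost it without any 1 siCtl library or siMYC replicate 3 (up to 0.103, 0.0641 and 0.0847). LAMB2, COL16A1 and COL18A1 kept it only without siMYC replicate 1 (up to 0.140, 0.120 and 0.115). Fold changes kept their direction in these fits. Read-weighted GC content, the mean GC of transcripts weighted by reads, was 50.5% to 51.9% in siMYC and 50.04% to 50.28% in siCtl. With GC and length trends removed from every library, 14 of the 16 stayed called, and LAMB2 (0.49, limma adjusted p = 0.0614) and COL18A1 (0.39, 0.0581) did not.

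**Figure D2:**
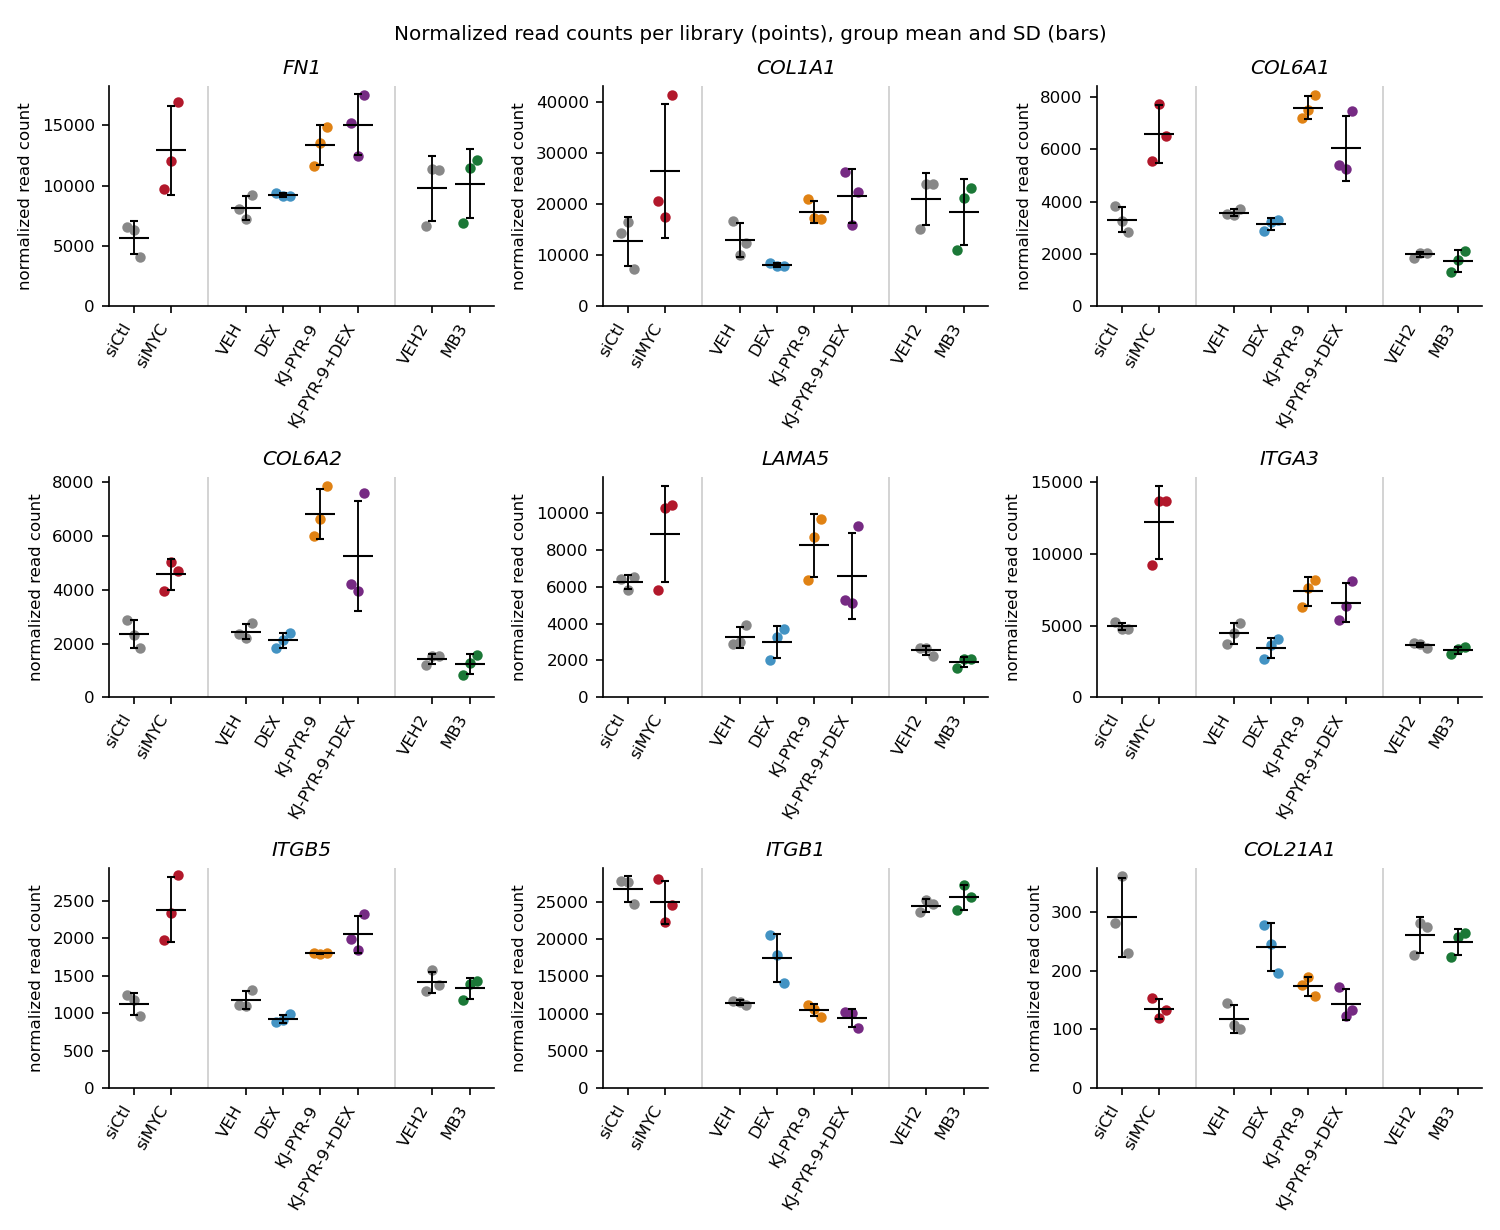
Normalized read counts, on linear axes from 0, of 9 matrix and integrin genes, with 1 point per library, and the group mean and SD as bars; vertical lines part the 3 experiments. FN1, COL6A1 and ITGA3 lie higher in siMYC than siCtl and higher in KJ-PYR-9 than VEH without overlap, and ITGB1 is highest among the inhibitor groups in DEX.

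COL6A1, COL6A2, LAMA5 and FN1 were among the genes higher with KJ-PYR-9 alone, given for 3 h. Of the 52 genes tested, 15 were higher, beside 25.4% of all 13616 genes tested, and 1 was lower, beside 17.5%. TMM scaling moved all genes from 3455 higher and 2380 lower to 2970 and 3038, and these genes to 13 and 3. The median log2 fold change of the 52 was 0.39, beside 0.06 over all genes. Of the laminin chains 4 of 9 were higher, of the beaded filament collagens 2 of 3, of the basement membrane and network collagens 3 of 8, and of the fibrillar collagens none of 8. The share of higher genes is near that of all genes. Marker sums were higher too. Epithelial markers (6 of 7 listed) summed to 171 to 201 against 80.2 to 117, and leukocyte markers (4 of 10) to 252 to 322 against 119 to 152. The mesenchymal sum was 20394 to 21432 against 14777 to 15979. The fibroblast and pericyte sum (7 of 7 listed) was 2881 to 5669 against 1224 to 3063, ranges that overlap. It was mostly ACTA2, with means of 3787 and 1712. PDGFRB was also higher, and PDGFRA, DCN, LUM, FAP and RGS5 had lower means in KJ-PYR-9. The leukocyte sum was mostly CORO1A (240 against 107), with CD14 also higher, PTPRC level (6.65 against 6.39) and CD68 lower. The part of these shifts in the results was not tested. Same-numbered libraries of this experiment deviate together, and with the replicate number as a block 22 were higher and 3 lower, beside 32.2% and 25.8% of all genes.

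COL6A2 had 2342, 2220 and 2748 in VEH and 6017, 6632 and 7845 in KJ-PYR-9 (1.48, SE 0.23, limma adjusted p = 0.00163). COL6A1 had 3508, 3480 and 3729 against 7192, 7501 and 8073 (1.09, SE 0.15, limma adjusted p = 0.000870). Both pairs of groups lie far apart, and the 2 genes had the clearest rise here. LAMA5, the alpha chain of the laminins of mature basement membranes, had 2876, 2981 and 3906 in VEH and 6353, 8689 and 9687 in KJ-PYR-9 (1.33, SE 0.29, limma adjusted p = 0.00545). LAMB2, a beta chain of such laminins, had 2589, 1980 and 3451 against 5085, 5445 and 7727 (1.20, SE 0.32, limma adjusted p = 0.0133). COL7A1, the anchoring fibril collagen under epithelia, had 84.4, 51.1 and 43.8 against 120, 99.3 and 113 (0.93, SE 0.28, limma adjusted p = 0.0230). All KJ-PYR-9 libraries exceeded all VEH libraries in these 3 genes. FN1 had 8025, 7220 and 9181 against 11600, 13540 and 14871 (0.71, SE 0.16, limma adjusted p = 0.00577).

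Of the receptors, ITGA11 had 182, 124 and 192 in VEH and 246, 318 and 393 in KJ-PYR-9 (0.94, SE 0.30, limma adjusted p = 0.0285). ITGA3 had 3716, 4479 and 5156 against 6296, 7627 and 8211 (0.73, SE 0.21, limma adjusted p = 0.0167). Its laminin-binding relative ITGA6 had 1790, 1275 and 1163 against 918, 1095 and 819, which did not pass (−0.56, SE 0.24, limma adjusted p = 0.0743), so the ITGA3 to ITGA6 ratio per kb was 2.23 ± 0.792 in VEH and 5.30 ± 1.20 in KJ-PYR-9. ITGAV, the alpha chain of the vitronectin receptors, was the only gene called lower, from 1567, 1297 and 1143 to 935, 850 and 797 (−0.62, SE 0.20, limma adjusted p = 0.0292). It did not overlap, and its partner ITGB5 went the other way, from 1112, 1094 and 1313 to 1798, 1795 and 1808 (0.62, SE 0.13, limma adjusted p = 0.00434). ITGA7 (1.26), COL18A1 (0.69), COL21A1 (0.57), COL4A2 (0.49), LAMB1 (0.46) and LAMA4 (0.45) were the other genes called higher. COL18A1 shares 16.4% of its exon bases with SLC19A1 on the opposite strand.

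The count fell to 8 without KJ-PYR-9 replicate 3, to 10 without VEH replicate 1 and to 10 without VEH replicate 2. All genes went from 3455 higher and 2380 lower to 2240 and 1153, 2299 and 1190, and 2557 and 1390 in these fits. COL6A1, COL6A2, LAMA5, LAMB1, FN1 and ITGB5 were called in all 6 fits that left out 1 library. ITGA11 lost its call without VEH replicate 1 or 2 and KJ-PYR-9 replicate 2 or 3 (limma adjusted p up to 0.108), COL7A1 without VEH replicate 2 or 3 and KJ-PYR-9 replicate 1 or 3 (up to 0.0748), and ITGAV without VEH replicate 1 or 2 and KJ-PYR-9 replicate 2 or 3 (up to 0.111). LAMA4 lost it without VEH replicate 1 or 2 and KJ-PYR-9 replicate 1 or 2 (up to 0.0879), and COL18A1 without VEH replicate 1 (0.0536). COL4A2 kept it only without VEH replicate 3, COL21A1 only without VEH replicate 1 and ITGA7 only without KJ-PYR-9 replicate 2 (up to 0.119, 0.0994 and 0.101). LAMB2 lost it without VEH replicate 2 (0.0550) or KJ-PYR-9 replicate 3 (0.0582), and ITGA3 without VEH replicate 1 (0.0700) or KJ-PYR-9 replicate 3 (0.0666). KJ-PYR-9 libraries also held more reads of GC-rich genes, with a read-weighted GC content of 54.3% to 54.8% against 51.3% to 52.5% in VEH. With GC and length trends removed from every library, 10 of the 15 stayed higher. COL6A2 was then 0.74 (limma adjusted p = 0.00169), LAMA5 0.57 (0.0259), LAMB2 0.66 (0.0391), COL6A1 0.42 (0.0140) and FN1 0.65 (0.00487). ITGA3 was 0.19 (0.348), COL7A1 0.22 (0.571), ITGA7 0.71 (0.166), COL18A1 −0.08 (0.682), COL4A2 −0.14 (0.397) and ITGAV 0.10 (0.422), so these calls ended.

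Of the 16 genes higher in siMYC and the 15 higher in KJ-PYR-9, 9 were the same: FN1, COL6A1, COL6A2, COL18A1, LAMB2, ITGA3, ITGA7, ITGA11 and ITGB5. That is 56.25% of the knockdown's genes and 60% of the inhibitor's. With GC and length trends removed, FN1, COL6A1, COL6A2, ITGA11 and ITGB5 stayed called higher in both. COL18A1 lost the call in both, LAMB2 in the knockdown, and ITGA3 and ITGA7 with KJ-PYR-9. The overlap of all genes was not counted in that setting. The knockdown's genes include ITGB2, which was not tested in the inhibitor experiment and could not be called there. Over all genes tested in both, 561 were higher in both, 37.0% of the knockdown's 1517 and 16.8% of the inhibitor's 3341. Across the 51 matrix and integrin genes tested in both, the log2 fold changes had a Pearson r of 0.45 and a Spearman rho of 0.51, and across all 13137 genes 0.33 and 0.39. The points are genes, which are not independent replicates, and both sets of fold changes followed GC content, with a Spearman rho of 0.51 (knockdown, 61 genes) and 0.53 (KJ-PYR-9, 52 genes). COL21A1 differed in sign, lower with siMYC and higher with KJ-PYR-9, in experiments that differ in time and control.

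**Figure D3:**
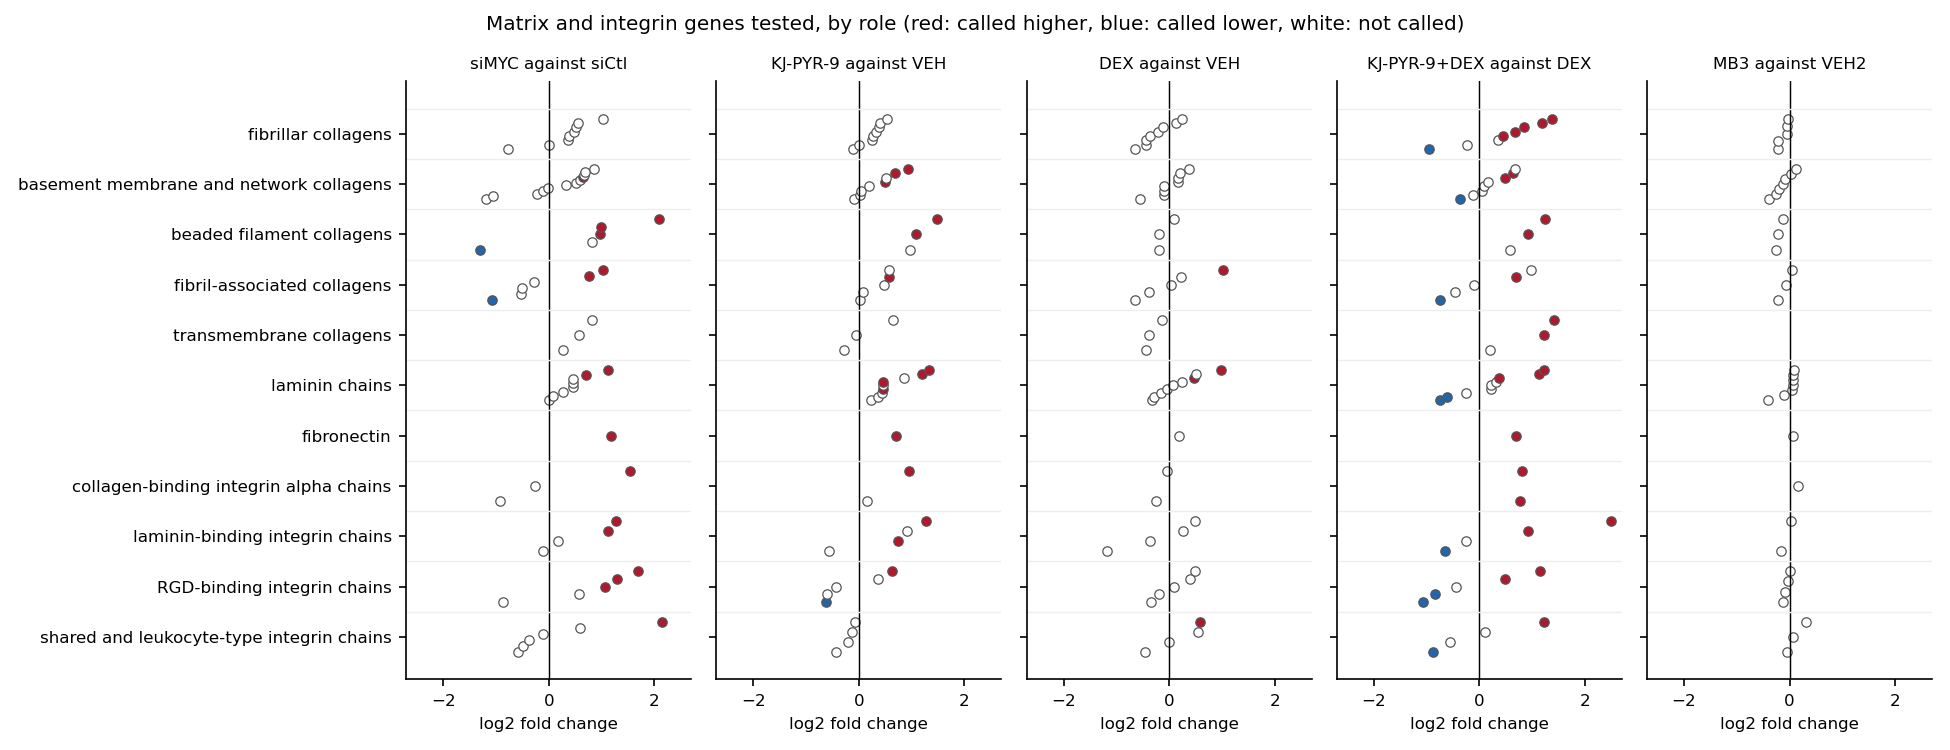
Log2 fold change of each tested matrix and integrin gene (1 point each) by role, in 5 comparisons, with genes called higher in red, called lower in blue and not called in white. No fibrillar collagen is called for siMYC, KJ-PYR-9 or DEX, 6 of 8 are for KJ-PYR-9+DEX, and the MB3 points stay between −0.41 and 0.32.

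DEX alone changed few of these genes. Of the 52 tested, 4 were higher, beside 9.5% of all genes, and none was lower, beside 8.02%. At an unadjusted p under 0.05 there were 11, beside 37.8% of all genes, and edgeR called 5 higher and 3 lower, beside 11.5% and 9.89%. The median of the 52 was −0.07, beside 0.02 over all genes. With the replicate block 8 were higher and 6 lower, beside 23.9% and 19.6% of all genes. The mesenchymal marker sum was 20099 to 25256 in DEX against 14777 to 15979 in VEH (5 of 5 listed). Epithelial sums (110 to 133 against 80.2 to 117) and leukocyte sums (88.5 to 121 against 119 to 152) overlapped. The part of these shifts in the DEX results was not tested.

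COL21A1 had 145, 107 and 100 in VEH and 278, 244 and 196 in DEX (1.02, SE 0.19, limma adjusted p = 0.00672). LAMA2, the laminin alpha chain of muscle and nerve, had 82.5, 60.7 and 86.0 against 180, 164 and 116 (0.99, SE 0.21, limma adjusted p = 0.0113). LAMA4, the alpha chain of vessel and mesenchymal laminins, had 188, 213 and 225 against 308, 319 and 245 (0.47, SE 0.14, limma adjusted p = 0.0389). None of these groups overlap. ITGB1 had 11770, 11620 and 11111 in VEH and 20567, 17856 and 14140 in DEX (0.59, SE 0.16, limma adjusted p = 0.0280). COL1A1 had 16649, 10023 and 12433 against 8520, 7917 and 7913, without overlap, and COL1A2 16295, 12248 and 13746 against 9951, 10853 and 10206. The first missed the threshold at −0.65 (limma adjusted p = 0.0560) and passed with the block (0.00778), and the second likewise at −0.44 (0.0641 and 0.0231).

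Without DEX replicate 3 the count was 11, and all genes had 1981 higher and 1639 lower, against 1294 and 1092 with every library. The count was 2 without DEX replicate 1, DEX replicate 2, VEH replicate 1 or VEH replicate 3. All genes had 474 and 391, 592 and 595, 771 and 555, and 575 and 386 there, in that order. COL21A1 and LAMA2 were called in all 6 such fits, and ITGB1 and LAMA4 only without DEX replicate 3, with limma adjusted p up to 0.106 and 0.129. DEX libraries had the lowest read-weighted GC content of the experiment, 48.9% to 50.9%. With GC and length trends removed, COL21A1 (0.82) and LAMA2 (0.86) kept their calls, and ITGB1 was 0.12 (limma adjusted p = 0.451) and LAMA4 0.35 (0.113).

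With KJ-PYR-9 in DEX treated cells, COL1A1, COL1A2, COL6A1 and COL6A2 were among the genes higher and ITGB1 among those lower. Of the 52, 23 were higher, beside 33.6% of all genes, and 9 were lower, beside 35.1%. The median was 0.36, beside 0.00 over all genes. Of the fibrillar collagens 5 of 8 were higher and 1 lower, of the integrin chains 7 of 15 higher and 4 lower, and of the laminin chains 3 of 9 higher and 2 lower. Leukocyte marker sums were 211 to 328 against 88.5 to 121 in DEX, and epithelial ones 126 to 222 against 110 to 133. Mesenchymal sums were lower, at 18034.5 to 19711.6 against 20099 to 25256 in DEX (5 of 5 listed). Of the mesenchymal markers only TWIST1 had a higher mean (4825 against 1791). The leukocyte sum was mostly CORO1A, with a mean of 215 against 76.5 in DEX. CD14 was also higher, PTPRC lower (3.07 against 13.5) and CD68 level (2.76 against 2.35). The part of these shifts in the results was not tested. The comparison uses DEX as its control, while that of KJ-PYR-9 alone uses VEH.

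COL1A1, the main chain of type I collagen, had 8520, 7917 and 7913 in DEX against 26383, 15957 and 22378 in KJ-PYR-9+DEX (1.38, SE 0.21, limma adjusted p = 0.000359). COL1A2, its partner chain, had 9951, 10853 and 10206 against 21810, 15884 and 18236 (0.84, SE 0.15, limma adjusted p = 0.000717). Neither pair of groups overlaps, and replicate 2 had the smallest rise in both. The chains wind together into 1 helix, and their transcripts hold 61.1% (COL1A1) and 54.8% (COL1A2) G and C.

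COL6A2 had 1849, 2123 and 2398 in DEX against 4198, 3947 and 7600 in KJ-PYR-9+DEX (1.25, SE 0.23, limma adjusted p = 0.000878). COL6A1 had 2883, 3223 and 3313 against 5384, 5259 and 7460 (0.93, SE 0.15, limma adjusted p = 0.000390). FN1 had 9381, 9131 and 9144 against 15150, 12454 and 17514 (0.69, SE 0.16, limma adjusted p = 0.00252). None of these overlap, and KJ-PYR-9+DEX replicate 3 was the highest in each. Of the laminins, LAMB2 had 1733, 1938 and 2893 against 4499, 3508 and 7887 (1.23, SE 0.32, limma adjusted p = 0.00575), and LAMA5 2001, 3258 and 3709 against 5291, 5136 and 9272 (1.13, SE 0.29, limma adjusted p = 0.00504). LAMA2 had 180, 164 and 116 against 122, 80.6 and 94.3, groups that overlap (−0.62, SE 0.21, limma adjusted p = 0.0193). COL23A1, a transmembrane collagen, had 15.3, 42.8 and 47.0 against 86.3, 80.6 and 90.4 (1.42, SE 0.33, limma adjusted p = 0.00307). COL21A1 fell from 278, 244 and 196 to 173, 122 and 134 (−0.74, SE 0.19, limma adjusted p = 0.00538), and COL4A5, a chain of basement membrane collagen, from 2267, 2314 and 2040 to 1908, 1630 and 1582 (−0.37, SE 0.12, limma adjusted p = 0.0202).

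ITGB5 had 879, 912 and 984 in DEX against 1988, 1842 and 2325 in KJ-PYR-9+DEX (1.14, SE 0.13, limma adjusted p = 9.23e-05). ITGB1 had 20567, 17856 and 14140 against 10222, 10067 and 8093 (−0.88, SE 0.16, limma adjusted p = 0.000679). ITGB8, a chain that pairs with alpha V and activates TGF-beta, had 421, 445 and 361 against 289, 161 and 153 (−1.08, SE 0.26, limma adjusted p = 0.00360). No groups overlap in these 3 genes, and the ITGB5 to ITGB1 ratio per kb was 0.0508 ± 0.0128 with DEX alone and 0.207 ± 0.0533 with both agents. ITGB4, the hemidesmosome chain, was near the filter, with 0, 4.56 and 7.31 against 16.05, 13.82 and 31.44. It reached the filter only through the groups given KJ-PYR-9, so its call is not independent of the filter. ITGB3, whose printed stretch is rich in G and C like those of ITGB4 and ITGB5, had 24.4, 30.1 and 34.4 against 28.1, 21.9 and 15.7, groups that overlap (−0.44, SE 0.25, limma adjusted p = 0.129). Among alpha chains, ITGA3 had 2694, 3647 and 4052 against 5368, 6343 and 8087 (0.93, SE 0.21, limma adjusted p = 0.00236). ITGAV had 2224, 1970 and 1498 against 1270, 1114 and 808 (−0.84, SE 0.20, limma adjusted p = 0.00371). ITGA6 had 1952, 1909 and 1223 against 1268, 1108 and 839, groups that overlap (−0.65, SE 0.24, limma adjusted p = 0.0294). The other genes called higher were COL17A1 (1.23), ITGA9 (1.22), COL11A2 (1.19), ITGA10 (0.81), ITGA11 (0.77), COL16A1 (0.69), COL27A1 (0.67), COL18A1 (0.64), COL4A2 (0.49), ITGA5 (0.48), COL5A1 (0.45) and LAMB1 (0.38), and COL24A1 (−0.96) was lower. ITGA9 had 9.15, 10.03 and 5.22 in DEX against 26.08, 10.37 and 27.51, and COL11A2 6.10, 4.56 and 9.39 against 22.06, 9.22 and 19.65. Both reached the filter only through KJ-PYR-9+DEX, where they were highest, so their calls are not independent of the filter. The call of ITGA6 ended without DEX replicate 1 (0.102), DEX replicate 2 (0.0982) or KJ-PYR-9+DEX replicate 3 (0.110), that of LAMA2 without DEX replicate 1 (0.0764), DEX replicate 2 (0.0628) or KJ-PYR-9+DEX replicate 2 (0.0738), and that of COL4A5 without either of DEX replicates 1 and 2 or of KJ-PYR-9+DEX replicates 2 and 3 (up to 0.0668). Calls also ended for COL24A1 without DEX replicate 2 or KJ-PYR-9+DEX replicate 3 (up to 0.0699), for COL4A2 without DEX replicate 1 or 2 or KJ-PYR-9+DEX replicate 3 (up to 0.0832), for ITGA10 and ITGA11 without DEX replicate 1 or 2 or KJ-PYR-9+DEX replicate 1 or 3 (up to 0.134 and 0.168), and for ITGA9 without DEX replicate 1 or 3 or KJ-PYR-9+DEX replicate 1 or 3 (up to 0.125). COL11A2 fell below the filter and was not tested without KJ-PYR-9+DEX replicate 1 or 3, nor was ITGB4 without KJ-PYR-9+DEX replicate 3.

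Read-weighted GC content was 48.9% to 50.9% with DEX alone and 53.4% to 55.2% with both agents. The genes called higher had a median transcript GC of 60.3% and those called lower 44.7%, and fold change against GC gave a Spearman rho of 0.67 over the 52 genes and 0.82 over 13046 genes. With GC and length trends removed, 4 were higher and 10 lower, beside 13.5% and 18% of all genes. Of the 23 called higher, 3 kept the call: FN1 (0.50, limma adjusted p = 0.0106), ITGB5 (0.61, 0.000671) and LAMB1 (0.29, 0.0376). Of the same 23, 9 turned negative, and 4 of them were then called lower: COL4A2 (−0.61, limma adjusted p = 0.00265), COL5A1 (−0.57, 0.0104), COL18A1 (−0.56, 0.00612) and ITGA5 (−0.42, 0.0152). COL1A1 was then 0.32 (0.331), COL1A2 0.22 (0.344), COL6A2 0.09 (0.568), COL6A1 −0.17 (0.206), LAMB2 0.24 (0.393), LAMA5 −0.09 (0.682), ITGA3 −0.07 (0.742) and COL23A1 0.31 (0.367). Of the genes called lower, COL4A5 kept the call (−0.62, limma adjusted p = 0.00540), while ITGB1 was 0.27 (0.0523), ITGB8 0.11 (0.694), ITGA6 −0.21 (0.422), LAMA2 −0.39 (0.118) and COL21A1 −0.29 (0.181), and ITGAV was called higher at 0.32 (0.0214). With the replicate block added to that correction, COL1A1 was called at 0.32 (0.0372) and ITGB1 was called higher at 0.27 (0.0271).

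**Figure D4:**
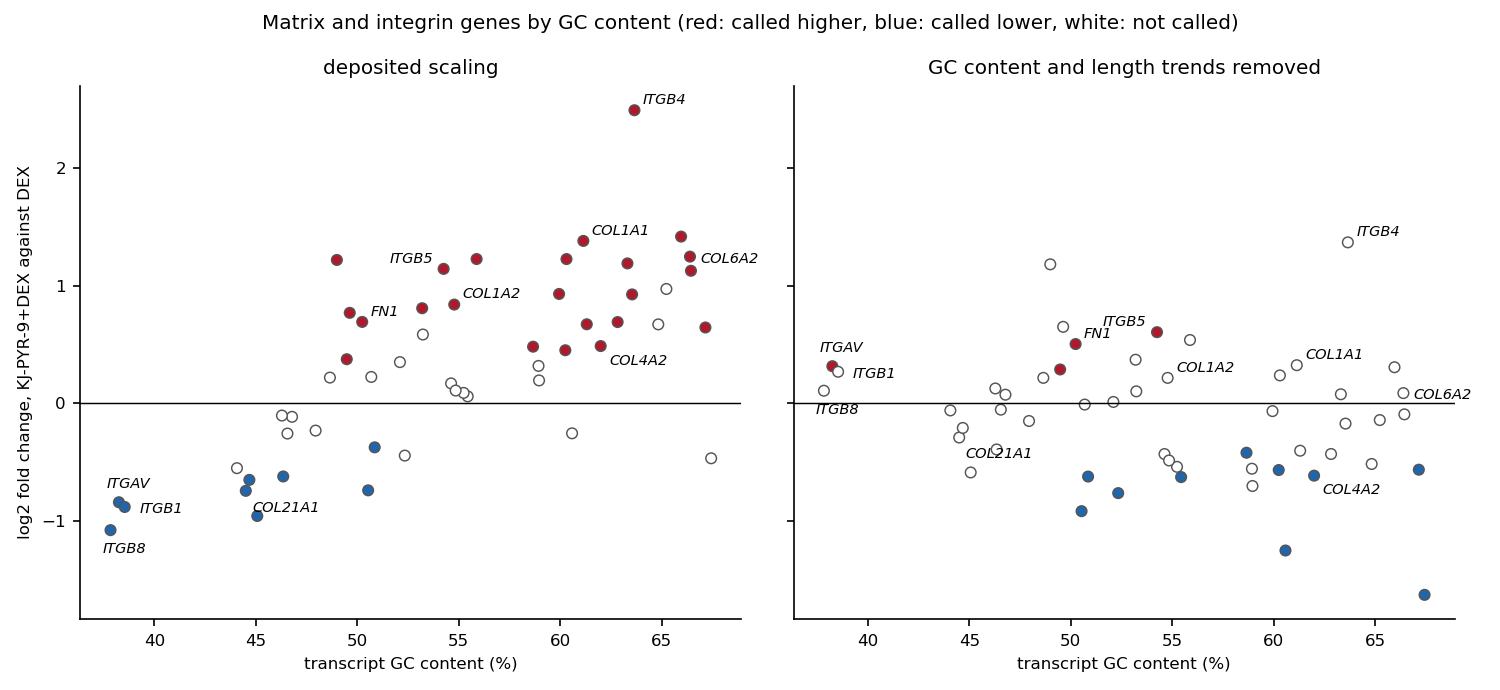
Log2 fold change of KJ-PYR-9+DEX against DEX by transcript GC content in percent, for the tested matrix and integrin genes (1 point each), with the deposited scaling on the left and with GC and length trends removed on the right; red points were called higher, blue lower, white not called. On the left the points rise with GC (Spearman rho 0.67), and on the right ITGAV, ITGB5, FN1 and LAMB1 are the genes called higher.

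The interaction asks whether the effect of KJ-PYR-9 differed with DEX present, as the log2 fold change of KJ-PYR-9+DEX over DEX minus that of KJ-PYR-9 over VEH. Of the 52 genes 1 was higher, beside 7.15% of all genes, and 5 were lower, beside 9.62%. TMM scaling moved all genes from 973 higher and 1310 lower to 1175 and 1031, with their median from −0.11 to −0.02, and these genes to 2 and 3. The replicate block gave 6 and 6, beside 12.4% and 20%, and removal of GC and length trends 1 and 7, beside 7.37% and 12.1%. COL21A1 had the clearest difference (−1.32, SE 0.27, limma adjusted p = 0.00789): the inhibitor raised it from VEH, to 176, 188 and 156, and lowered it from DEX. COL17A1, a collagen of hemidesmosomes, had 28.8, 26.7 and 29.7 in VEH, 17.56, 23.77 and 29.99 in KJ-PYR-9, 18.3, 32.8 and 28.2 in DEX against 58.2, 48.4 and 82.5 in KJ-PYR-9+DEX (1.503, SE 0.36, limma adjusted p = 0.0173). It was high only in the libraries given both agents. LAMA4 (−0.71, SE 0.19, limma adjusted p = 0.0301), LAMA2 (−0.98, SE 0.29, 0.0417) and ITGB1 (−0.74, SE 0.22, 0.0413) were called lower too.

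The interaction of COL21A1 and of COL17A1 was called in all 12 fits that left out 1 library. LAMA4 was called in 5 of 12 and LAMA2 and ITGB1 in 2 of 12 each, with limma adjusted p up to 0.0783, 0.0933 and 0.102. The count was 3 without DEX replicate 1, DEX replicate 2, KJ-PYR-9 replicate 1 or VEH replicate 2, and 2 without KJ-PYR-9 replicate 2. All genes had 973 higher and 1310 lower with every library. In that order these fits gave 759 and 964, 754 and 908, 629 and 840, 688 and 905, and 632 and 863. COL1A1 missed the threshold at 0.85 (limma adjusted p = 0.0783) and passed with the block (0.0119).

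MB-3 gave no call among these genes. Of the 36 tested none was higher or lower, beside 0.0299% of all 10048 genes in each direction, with limma. At an unadjusted p under 0.05 there were 3, COL8A1, LAMA5 and ITGAE, beside 13.7% of all genes, and edgeR was not run here. The block also gave 0. FN1 had 6652, 11367 and 11257 in VEH2 and 6916, 11467 and 12101 in MB3 (0.06, 95% interval −0.56 to 0.67). COL1A1 had 15110, 24004 and 23959 against 11116, 21117 and 23098 (−0.23, −0.90 to 0.45), and ITGB1 23595, 25257 and 24709 against 23862, 27317 and 25619 (0.06, −0.12 to 0.24). In both groups replicate 1 was low for FN1 and COL1A1, and the groups overlap. The nearest to a difference was LAMA5, with 2686, 2696 and 2248 against 1597, 2070 and 2086 (−0.41, −0.71 to −0.12, limma adjusted p = 0.287). The list of this experiment began at a mean of 83.9, so weakly expressed chains were not analysed here.

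Genes that fold, anchor and cut the matrix were counted in the same fits, from lists chosen by function. For siMYC, 5 of 27 genes of collagen folding and cross-linking were higher and none lower, 2 of 20 basement membrane and matrix partners higher, 7 of 16 proteases and their inhibitors higher and 1 lower, 2 of 14 receptors other than integrins higher, and 6 of 26 adhesion complex genes higher and 1 lower, beside 11.4% higher and 4.78% lower over all genes. TGM2, which cross-links fibronectin, went from a mean of 870 to 2792 (1.67, SE 0.14, limma adjusted p = 0.00551), and AGRN, the basement membrane proteoglycan agrin, from 3138 to 11876 (1.88, SE 0.29, limma adjusted p = 0.0145). The protease inhibitor TIMP3 (1.72), the activator of plasminogen PLAU (1.03) and the adhesion protein TNS3 (0.99) were higher, and the protease MMP16 lower (−1.15). The list counts were made in the main fits alone. Over the siMYC fits that left out 1 library, 109 of 204 values lost the call. These values were of called matrix and integrin genes, list genes of largest change and MYC.

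For KJ-PYR-9 the counts were 17 higher and 2 lower of 27 folding and cross-linking genes, 14 and 0 of 21 partners, 8 and 1 of 16 proteases and inhibitors, 8 and 2 of 14 receptors, and 14 and 0 of 25 adhesion complex genes, beside 25.4% higher and 17.5% lower over all genes. The collagen chaperone SERPINH1 rose by 1.19 and the lysyl hydroxylase PLOD1 by 1.13, while PLOD2 (−1.01) and the prolyl hydroxylase subunit P4HA1 (−0.77) were lower. CCN2, a matricellular protein that binds integrins, went from a mean of 2374 in VEH to 11908 (2.45, SE 0.33, limma adjusted p = 0.000847). CD151, which couples to laminin-binding integrins, rose by 1.39 and the adhesion scaffold BCAR1 by 1.26. With GC and length trends removed, 20 of 35 values of the same kinds of genes kept the call, 11 lost it and 4 turned in sign. Over the fits that left out 1 library, 66 of 222 lost it.

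For DEX, 2 of 27 folding and cross-linking genes were higher and 1 lower, 4 of 21 partners higher, none of 16 proteases and inhibitors was called, 2 of 14 receptors were higher, and 2 of 25 adhesion genes were higher and 1 lower, beside 9.5% and 8.02% of all genes. CCN2 reached a mean of 10460 (2.25, SE 0.33, limma adjusted p = 0.00161), and the collagen receptor DDR2 (0.68), the cross-linking enzyme LOX (0.86) and FERMT2, which activates integrins (0.82), were higher. For KJ-PYR-9+DEX over DEX the counts were 14 higher and 6 lower of 27, 10 and 4 of 21, 6 and 3 of 16, 6 and 6 of 14, and 16 and 3 of 25, in the same order of lists, beside 33.6% and 35.1% of all genes. TGM2 was higher (1.496), as were perlecan, HSPG2 (1.501), and filamin, FLNA (1.51). P4HA1 (−1.81), PLOD2 (−1.69), DDR2 (−0.80) and FERMT2 (−0.81) were lower. With GC and length trends removed, 13 of 62 values of called matrix and list genes kept the call, 27 lost it and 22 turned in sign. FERMT2 was then 0.11. For DEX over VEH, 3 of 13 such values kept the call and 10 lost it. The genes of these lists called lower in the interaction included CCN2 (−2.73), CCN1 (−2.36), POSTN (−1.31), DDR2 (−1.10), LOX (−1.09) and FERMT2 (−1.01), and those called higher TGM2 (0.999), TLN1 (0.80), PXN (0.73) and FBN2 (0.71), beside 9.62% and 7.15% of all genes. For MB-3 no gene of any list was called.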

How the data were processed

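RNA of BT549 cells was depleted of ribosomal RNA and sequenced in pairs in 24 libraries, per the labels' protocols. The deposited values are a normalized signal per gene on GRCh38 (counts divided by a size factor of each library), with featureCounts, DESeq2, SAMtools and bcl2fastq named, without versions or roles, per the submitters' processing notes. The aligner, annotation and strand setting are not given in the sources used here. Undoing the size factor gave whole reads for 100% of values in each library, to within 0.0001. A separate check did not accept this for siMYC replicate 1, whose reads were used in edgeR all the same, nor for the MB-3 experiment, where edgeR was not run.

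Values were fitted as log2(value + 1) with limma 3.58.1 (R 4.3.3), 1 fit per experiment, over genes with a mean of at least 10 in the fitted libraries, with adjustment over all genes at 0.05. The interaction used the 12 inhibitor libraries. The genes and the function lists were chosen with earlier results of these data known. Named were FN1, the gene of highest level per kb in each role, up to 8 called genes in each direction with a mean of at least 50, and up to 3 per direction from each function list; other genes appear by fold change only or were chosen after their values were seen. Alternatives were a pseudocount of 5, no filter, a mean of at least 50, TMM, edgeR 4.0.16 on recovered reads, GC and length trends removed (splines with 5 degrees of freedom), a replicate block, fits of 2 groups and each library left out. GC content came from the transcript with the longest coding sequence. The first choice, the longest transcript of any kind, was replaced after its values were seen and kept as an added alternative. Same-numbered libraries deviated together in the inhibitor experiment (r 0.130 to 0.524 in 18 pairs) and in the MB-3 experiment (0.208 to 0.389 in 3 pairs), each above 0.1. Inhibitor pairs of unlike number reached up to 0.236 (DEX replicate 1 with KJ-PYR-9+DEX replicate 2). The pairing was thus least distinct for replicate 1. The scripts were tested on simulated data. Lengths and positions are from GENCODE v29, and the promoters from RefSeq. Depth limits weak genes most, and precision rests on 3 libraries per group. Some items are not reported here.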

Additional observations from a re-analysis of the deposited data

Results flagged for a closer look

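The effect of KJ-PYR-9 was called different with DEX for 5 genes given here, by the limma interaction test over 12 libraries. The difference in log2 fold change was −1.32 for COL21A1, 1.503 for COL17A1, −0.98 for LAMA2, −0.71 for LAMA4 and −0.74 for ITGB1. Of the 4 inhibitor groups, DEX had the highest mean of COL21A1, LAMA2, LAMA4 and ITGB1, and KJ-PYR-9+DEX that of COL17A1. With GC and length trends removed, ITGB1 was −0.31 (limma adjusted p = 0.130) and no longer called, while the other 4 were. LAMA2 and ITGB1 lost the call with TMM scaling and with no filter, and LAMA2 also with edgeR. LAMA2, LAMA4 and ITGB1 lost it in most fits that left out 1 library.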

How the results depend on the processing

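Counts of matrix and integrin genes called moved by over 1.5 times as follows. In the knockdown, whose replicate numbers did not pair the libraries (r −0.346 to −0.020 in 3 pairs), the replicate block gave 3 in place of 18, also with GC and length trends removed, and leaving out 1 library gave 3 to 29. All genes fell likewise, from 1679 higher and 707 lower to 403 and 67 with the block. They had 344 and 77 with GC and length trends also removed. For KJ-PYR-9 the block gave 25 in place of 16 and leaving out 1 library 8 to 16. With the block all genes had 4379 higher and 3518 lower in place of 3455 and 2380. For DEX, against 4, the block gave 14, the block with GC and length trends removed 10, edgeR 8, the fit of 2 groups 2, and leaving out 1 library 2 to 11. All genes had 1294 higher and 1092 lower in the main fit. They had 3254 and 2671, 1374 and 929, 1572 and 1346, and 1066 and 610 in the first 4 of these settings. For KJ-PYR-9+DEX against DEX, 32 became 14 with GC and length trends removed, and also 14 with GC of the longest transcript (chosen after seeing the data), and leaving out 1 library gave 23 to 34. All genes went from 4569 higher and 4782 lower to 1764 and 2352, and 1817 and 2374, in these GC settings. For the interaction, against 6, the block gave 12, the block with GC and length trends removed 15, GC of the longest transcript 11, and leaving out 1 library 2 to 7. All genes had 973 higher and 1310 lower in the main fit. They had 1682 and 2717 with the block, 1320 and 2487 with both, and 951 and 1548 with GC of the longest transcript. MB-3 had 0 in every setting run, and edgeR was not run there because the recovery of whole reads did not pass a check. Signs of called genes turned only where GC and length trends were removed, with the same values in the replicate block fit. For KJ-PYR-9 against VEH these were COL4A2 −0.14, COL18A1 −0.0754, ITGAV 0.10 and ADAM10 0.17, and with GC of the longest transcript COL4A2 −0.21, COL18A1 −0.14, ITGAV 0.0448, ADAM10 0.0900 and ANTXR2 0.0800. For KJ-PYR-9+DEX against DEX they were COL5A1 −0.57, COL27A1 −0.40, COL4A2 −0.61, COL18A1 −0.56, COL6A1 −0.17, COL16A1 −0.43, LAMA5 −0.0931, ITGA3 −0.0656, ITGA5 −0.42, ITGAV 0.32, ITGB8 0.11, ITGB1 0.27, LOX 0.40, AGRN −0.0455, DCN 0.12, MMP2 −0.22, ADAM10 0.0246, ADAM17 0.0897, MRC2 −0.20, DDR1 −0.31, FERMT2 0.11 and PTK2 0.0749. With GC of the longest transcript they were COL5A1 −0.65, COL27A1 −0.49, COL4A2 −0.71, COL18A1 −0.63, COL6A1 −0.21, COL16A1 −0.50, LAMA5 −0.18, ITGA3 −0.20, ITGA5 −0.20, ITGAV 0.23, ITGB1 0.0399, LOX 0.35, AGRN −0.13, DCN 0.0154, MMP2 −0.28, ADAM17 0.43, MRC2 −0.25, DDR1 −0.35, CD47 0.11 and FERMT2 0.46. The cause was not tested.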

Other observations

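Ratios of related chains, per kb, differed between groups. LAMB2 over LAMB1 had a mean of 0.571 in siCtl and 0.922 in siMYC, and 0.765 in VEH and 1.27 in KJ-PYR-9. ITGA3 over ITGA6 was 0.863 in siCtl and 2.34 in siMYC. COL1A1 over COL1A2 was 0.894 with DEX alone and 1.30 with KJ-PYR-9 added. These are means of 3 libraries per group with no test. The share of codons with G or C at the third base was 47.4% in COL1A1 and 32.4% in COL1A2, and 75.9% in ITGA3 and 43.1% in ITGA6.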
